A study of Homo sapiens with 6 samples.

Results

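Protein phosphatase 2A (PP2A) and a set of STE20-type kinases were followed at the RNA level after knockdown of STRIP2. The members were the genes whose symbol in the deposited table equals 1 of 10 names, and all 10 were found among 61806 genes. They are the catalytic subunits PPP2CA and PPP2CB, the A subunits PPP2R1A and PPP2R1B, the germinal centre kinases of class III (GCKIII) STK24, STK25 and STK26, their adaptor PDCD10, and the related kinases MAP4K4 and MINK1. RNA-seq was available for 6 libraries from HCT116 cells, an established line of human colorectal cancer. A control short interfering RNA (si-NC) was given to the cells of 3 libraries, labelled wildtype, and one against STRIP2 (si-STRIP2) to the cells of the other 3, labelled STRIP2 knockdown. The number of duplexes, the time after transfection and the origin of the replicates (separate cultures or not) are not given in the sources used here. The p-values therefore measure only the spread between these libraries, which may be technical. In bulk RNA, fewer cells expressing a gene and less RNA per cell cannot be told apart.

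PP2A is a serine and threonine phosphatase built from a catalytic subunit, a scaffolding A subunit that holds it, and an exchangeable B subunit that selects its substrates. In STRIPAK (striatin-interacting phosphatase and kinase) complexes the striatins take the place of the B subunit, and STRIP2 is among the proteins bound to them. PDCD10, also known as CCM3, ties the GCKIII kinases to the striatins, which puts a phosphatase and the kinases it acts on in a single assembly. MAP4K4 and MINK1 belong to a sister class of kinases that has been linked to the same complex and can phosphorylate the LATS kinases of the Hippo pathway.

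Total counts ranged from 17184963 to 21721218 per library. Mitochondrial genes held 4.88% to 8.88% of the counts in si-NC and 5.73% to 6.30% in si-STRIP2, and whether this range moved any value was not tested. STRIP2 itself had 3.19, 3.77 and 3.81 FPKM (counts scaled to exonic size and library size) in si-NC and 2.71, 2.53 and 2.58 in si-STRIP2, so that 72.6% of the control level was left (log2 fold change -0.46, SE 0.0826, edgeR adjusted p = 1.62e-05). Of the genes with an edgeR adjusted p under 0.05, 3374 had a larger absolute log2 fold change than STRIP2. Of 8 colorectal epithelial markers, 6 exceeded 1 FPKM in every library and summed to 668 to 721 FPKM with the others, while VIL1 and LGALS4 were at or below 0.13 FPKM throughout. Marker lists of fibroblasts, endothelium and immune cells summed to at most 2.64, 0.46 and 0.57 FPKM.

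Of the 10 genes, 7 passed the test (edgeR quasi-likelihood test, adjusted p under 0.05 over 15687 genes), where 54.8% of all genes tested did. With changes this widespread, the count is not read as particular to these genes. With limma on log2(TPM + 1), 4 of the 10 passed, beside 5280 of 12329 genes in that setting. PPP2R1A and MINK1 rose, against a background of 27.8% of tested genes. PPP2CA, PPP2R1B, STK24, PDCD10 and MAP4K4 fell, against a background of 27.0%. PPP2CB, STK25 and STK26 did not pass. For the same 7 genes si-NC and si-STRIP2 had separate ranges of FPKM, as had 58.6% of all genes tested. All 10 genes passed the filter on low counts, with 588 to 3983 counts on average, and their median log2 fold change was -0.13 beside 0.014 for all genes tested.

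**Figure D1:**
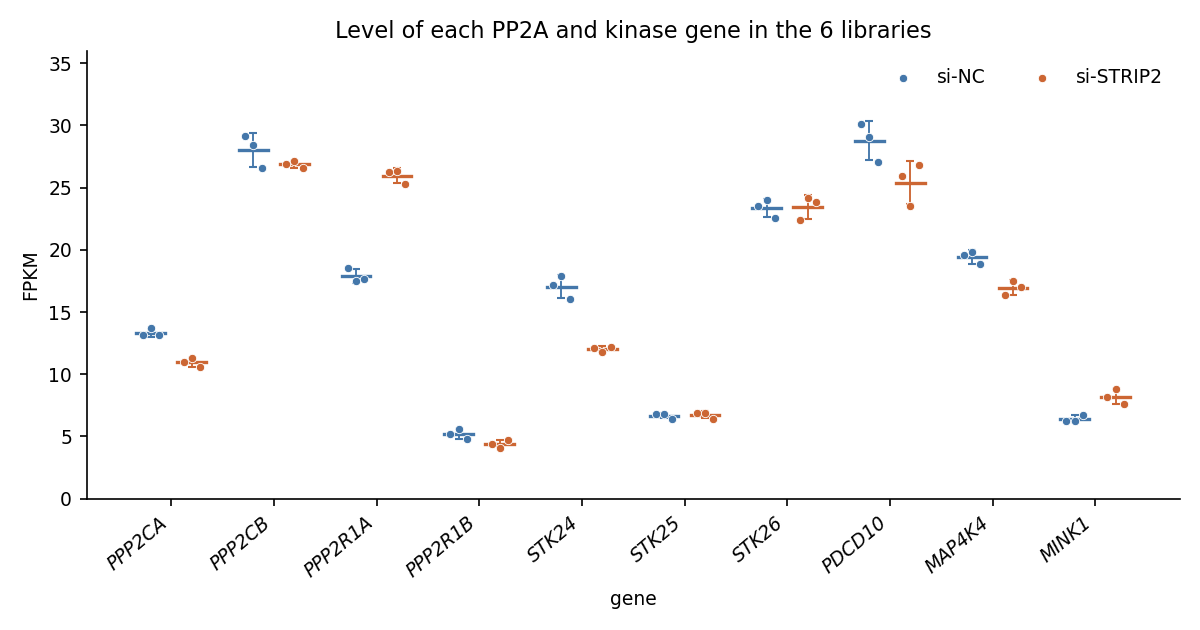
FPKM (vertical axis) of each of the 10 genes in the 3 si-NC (blue) and 3 si-STRIP2 (orange) libraries. Points are libraries, horizontal bars are means and error bars are SD. PPP2R1A stands near 18 in si-NC and near 26 in si-STRIP2, and STK24 moves from about 17 to about 12.

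Among the related genes of the 10 members, the A subunits showed the widest divergence. The sequence upstream of each is shown here for that reason, beside that of MINK1, the other gene that rose. Related genes outside the members also moved apart, such as the B subunits PPP2R5D (log2 fold change 0.63) and PPP2R5E (-0.33). The bases are from RefSeq on GRCh38.p14 and end where annotated exons or the deposited gene begin. Capitals mark CCAAT and GGGCGG on either strand, the letters of the CCAAT box and of the GC box, motifs picked after the values of the genes had been seen. The printed stretch of PPP2R1A lies at chr19:52189802-52190038 (plus strand), that of PPP2R1B at chr11:111766428-111766639 (minus strand) and that of MINK1 at chr17:4833090-4833339 (plus strand).
PPP2R1A: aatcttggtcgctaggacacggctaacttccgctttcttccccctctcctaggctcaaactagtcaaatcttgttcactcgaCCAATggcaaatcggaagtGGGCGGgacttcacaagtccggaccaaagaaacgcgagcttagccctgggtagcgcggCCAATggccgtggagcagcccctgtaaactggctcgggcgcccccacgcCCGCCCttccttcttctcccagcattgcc
PPP2R1B: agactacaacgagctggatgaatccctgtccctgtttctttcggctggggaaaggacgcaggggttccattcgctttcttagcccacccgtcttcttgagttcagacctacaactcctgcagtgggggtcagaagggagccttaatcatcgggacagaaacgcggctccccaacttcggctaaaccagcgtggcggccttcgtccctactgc
MINK1: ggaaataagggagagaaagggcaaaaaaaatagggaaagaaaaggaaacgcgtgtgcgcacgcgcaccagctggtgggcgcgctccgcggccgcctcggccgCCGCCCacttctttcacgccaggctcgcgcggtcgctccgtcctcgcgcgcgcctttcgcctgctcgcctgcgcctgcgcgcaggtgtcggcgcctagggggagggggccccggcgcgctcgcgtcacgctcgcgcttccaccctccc

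The upstream stretch of PPP2R1A holds 2 CCAAT boxes and 2 GC boxes, that of MINK1 1 GC box, and the printed stretch of PPP2R1B neither. The 38 bases next to the start of PPP2R1B are not printed, and its full 250 bases hold 2 GC boxes, as many as those of PPP2R1A. Entries for 9 of the 10 genes were matched by symbol, and the first start listed for each was scanned over the 250 bases before it. CCAAT was found in 3 of the 9 (PPP2CA, PPP2R1A and PDCD10) and in 33.0% of 27305 promoters of the same length. GGGCGG was found in 7 of the 9 and in 42.3% of all promoters, and the AP-1 motif TGANTCA in 0 of the 9 and in 6.60%. STK24, the gene with the largest fall, had 5 GC boxes and a GC content of 87.6%, above that of 99.9% of the promoters scanned, whose median was 58.0%. Genes that rose, genes that fell and genes that did not pass all held GC boxes. The GGGCGG letters occur before PPP2R1A, MINK1, STK24, PPP2R1B, MAP4K4, STK25 and STK26, and not before PPP2CA or PDCD10. The GC content of the 9 ran from 59.2% to 87.6%, and promoters of like content were not compared.

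PPP2R1A (ENSG00000105568, chromosome 19, 52190048 to 52229518, plus strand) encodes Aalpha, the main scaffold of the PP2A holoenzyme. Control libraries had 18.51, 17.50 and 17.65 FPKM, and si-STRIP2 libraries 26.28, 26.35 and 25.28. Every si-STRIP2 library lay above every si-NC library, and the gap between the groups was wider than the range of either. The mean went from 17.9 ± 0.545 to 26.0 ± 0.599 (SD, n = 3), 145% of the control (log2 fold change 0.53, SE 0.0411, edgeR adjusted p = 4.39e-13). Of all genes tested, 90.8% had a lower log2 fold change. The value stayed between 0.51 and 0.56 over 18 other processing choices and passed in each.

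PPP2R1B (ENSG00000137713, chromosome 11, 111726908 to 111766389, minus strand) encodes Abeta, the less abundant scaffold. It had 5.19, 5.59 and 4.79 FPKM in si-NC and 4.42, 4.11 and 4.69 in si-STRIP2. The groups were separate but close, with the lowest control at 4.79 and the highest knockdown library at 4.69. The gene fell to 84.9% of the control (log2 fold change -0.24, SE 0.0666, edgeR adjusted p = 0.00279), while its paralog PPP2R1A rose. The call was lost with limma on log2(TPM + 1), where the value was -0.22 (limma adjusted p = 0.0909). Over the alternatives the adjusted p ran from 0.000452 (edgeR without si-NC replicate 3) to 0.705 (edgeR against a 1.2-fold change). SIK2 on the other strand shares 3948 bases with PPP2R1B, held 157% as many counts and was higher in si-STRIP2 (log2 fold change 0.20). Whether counting used strand is not given in the sources used here, and the part of SIK2 reads in the value was not tested.

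The catalytic subunits differ little in protein sequence and carry the active site of the phosphatase. PPP2CA (ENSG00000113575, chromosome 5, 134194035 to 134226073, minus strand) had 13.16, 13.69 and 13.13 FPKM in si-NC and 11.02, 11.27 and 10.58 in si-STRIP2. All knockdown libraries were below all controls, by more than the range within either group. The gene fell to 82.2% of the control (log2 fold change -0.29, SE 0.0447, edgeR adjusted p = 1.72e-06).

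PPP2CB (ENSG00000104695, chromosome 8, 30774457 to 30814314, minus strand) was the more abundant catalytic transcript in every library. Control libraries had 29.15, 28.41 and 26.54 FPKM, and si-STRIP2 libraries 26.89, 27.15 and 26.55. The groups overlapped, because si-NC replicate 3 was just below all si-STRIP2 libraries. The log2 fold change of -0.066 had a 95% interval of -0.15 to 0.021 (edgeR adjusted p = 0.192). Without si-NC replicate 3 the value was -0.11 and passed (edgeR adjusted p = 0.0303). That was the lowest adjusted p over the alternatives, and the highest was 1 (edgeR against a 1.2-fold change).

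Among the GCKIII kinases only STK24 passed. STK24 (MST3; ENSG00000102572, chromosome 13, 98445185 to 98577940, minus strand), a kinase of cell polarity and migration, had 17.19, 17.89 and 16.05 FPKM in si-NC and 12.10, 11.76 and 12.22 in si-STRIP2. The gap between the groups was wider than the range of either. Its mean fell from 17 ± 0.929 to 12.0 ± 0.239 (SD, n = 3), 70.6% of the control (log2 fold change -0.51, SE 0.0422, edgeR adjusted p = 3.01e-12). It was the largest fall of the 10 genes, and 11.4% of all genes tested had a lower log2 fold change. The other processing choices gave -0.55 to -0.47, past the threshold in each. FARP1 on the other strand shares 9992 bases with STK24 and held 33.6% as many counts, with a log2 fold change of -0.25, and the part of its reads in the value was not tested. The pseudogene STK24P1 had 0 counts.

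STK25 (ENSG00000115694, chromosome 2, 241492670 to 241509730, minus strand), a Golgi-associated kinase, had 6.80, 6.81 and 6.41 FPKM in si-NC and 6.88, 6.91 and 6.40 in si-STRIP2. The libraries of both groups covered nearly the same range. The log2 fold change was 0.0088 with a 95% interval of -0.095 to 0.11 (edgeR adjusted p = 0.897). FARP2 on the other strand shares 2172 bases with STK25 and as a whole gene held 77.4% as many counts. Its log2 fold change was 0.21, and the part of its reads in the value of STK25 was not tested.

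STK26 (MST4; ENSG00000134602, chromosome X, 132023302 to 132075943, plus strand), which is known for roles at the apical membrane and the Golgi, was the most abundant of the 3 kinases per length. Control libraries had 23.51, 24.03 and 22.58 FPKM, and si-STRIP2 libraries 22.38, 24.18 and 23.84. The lowest and the highest library both belonged to si-STRIP2. The log2 fold change was 0.0013 with a 95% interval of -0.092 to 0.095 (edgeR adjusted p = 0.983). Neither interval reached the fall of STK24.

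PDCD10 (ENSG00000114209, chromosome 3, 167683298 to 167734939, minus strand), the adaptor of these kinases, had 30.14, 29.07 and 27.06 FPKM in si-NC and 25.90, 23.49 and 26.82 in si-STRIP2. The groups nearly touched, with the lowest control at 27.06 and the highest knockdown library at 26.82. The gene fell to 88.3% of the control (log2 fold change -0.18, SE 0.0495, edgeR adjusted p = 0.00202). With limma on log2(TPM + 1) the call was lost at -0.17 (limma adjusted p = 0.124). Over the alternatives the adjusted p ran from 0.000215 (edgeR without si-NC replicate 3) to 1 (edgeR against a 1.2-fold change).

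MAP4K4 (ENSG00000071054, chromosome 2, 101696850 to 101894690, plus strand), a kinase of cell migration and focal adhesion turnover, had 19.56, 19.86 and 18.82 FPKM in si-NC. In si-STRIP2 it had 16.36, 17.53 and 16.98, each below the 3 controls. It fell to 87.3% of the control (log2 fold change -0.20, SE 0.0409, edgeR adjusted p = 0.000101). With limma on log2(TPM + 1) the value was -0.19 and did not pass (limma adjusted p = 0.0752). Over the alternatives the adjusted p ran from 1.13e-05 (edgeR without si-NC replicate 3) to 1 (edgeR against a 1.2-fold change).

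MINK1 (ENSG00000141503, chromosome 17, 4833340 to 4898061, plus strand), the close paralog of MAP4K4, moved the other way. It had 6.26, 6.23 and 6.74 FPKM in si-NC and 8.17, 8.84 and 7.61 in si-STRIP2, so that all knockdown libraries were higher, with more scatter among them than among the controls. The gene rose to 128% of the control (log2 fold change 0.35, SE 0.0532, edgeR adjusted p = 8.51e-07).

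**Figure D2:**
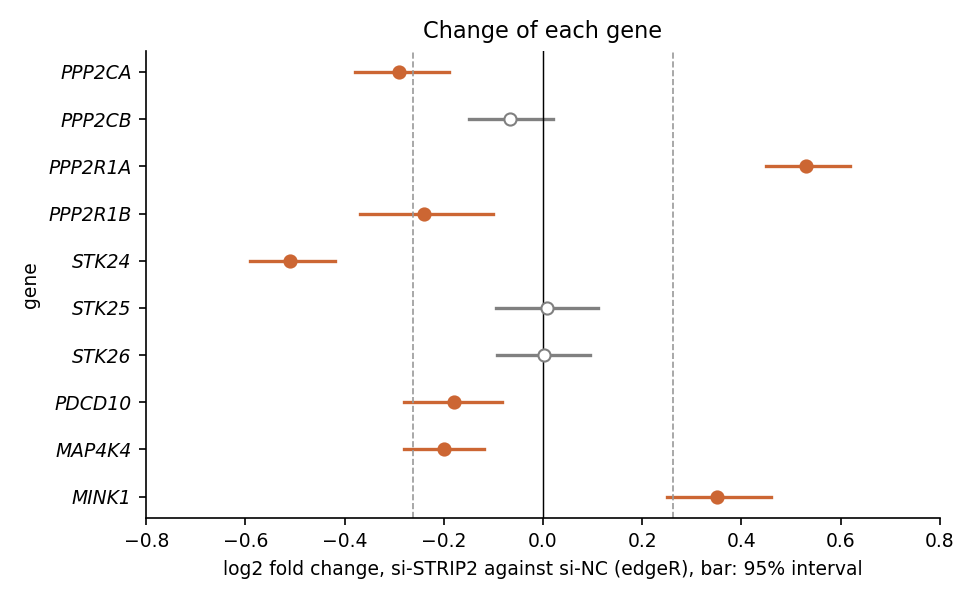
Log2 fold change (horizontal axis, si-STRIP2 against si-NC) of each gene with its 95% interval from edgeR, filled where the adjusted p is under 0.05. Dashed lines mark a 1.2-fold change. The intervals of PPP2R1A (0.45 to 0.62) and STK24 (-0.59 to -0.42) lie wholly beyond the lines, and those of PPP2CB, STK25 and STK26 include 0.

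The changes were small. When the test was made against a 1.2-fold change in place of no change, PPP2R1A (edgeR adjusted p = 2.21e-07) and STK24 (edgeR adjusted p = 2.08e-06) passed, 2 of the 10, where 23.7% of all genes tested did. MINK1 narrowly missed that stricter test (edgeR adjusted p = 0.0556). PPP2CA did not pass it (edgeR adjusted p = 0.333).

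The order of the levels per length changed in 1 main respect. In si-NC the 10 genes ran from PDCD10 (28.8 FPKM) and PPP2CB (28.0) through STK26 (23.4), MAP4K4 (19.4), PPP2R1A (17.9), STK24 (17), PPP2CA (13.3), STK25 (6.67) and MINK1 (6.41) to PPP2R1B (5.19). The neighbours whose libraries overlapped there were PDCD10 with PPP2CB, PPP2R1A with STK24, and STK25 with MINK1. In si-STRIP2 PPP2R1A stood at position 2, behind PPP2CB, and overlapped PDCD10 below it, which in turn overlapped STK26. No other neighbours overlapped in si-STRIP2, where MINK1 (8.21) stood clear above STK25 (6.73). FPKM divides by the deposited exonic size of a gene, so an order between genes depends on that size. Other than SIK2, FARP1 and FARP2, genes overlapping the 10 held at most 0.61% as many counts as the gene they overlap.

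Ratios within a library do not depend on how libraries are scaled, and an exact permutation test (2-sided) was applied to 8 of them. For 3 against 3 the smallest p it can give is 0.1, which became 0.133 after Benjamini-Hochberg adjustment over the 8, so that none could pass. In 6 of the 8 the groups did not overlap, each at that smallest p. Of all single genes tested, 58.6% had groups without overlap, and ratios of other genes were not computed. The 8 ratios share genes with each other and with the tests above, so they are not added evidence. The ratio of summed catalytic to summed A transcripts was 1.79 in control libraries and 1.24 after knockdown. Its log2 values were 0.84, 0.87 and 0.82 against 0.30, 0.33 and 0.31, a difference of -0.53 with SDs of 0.0228 and 0.0165. This was many times the spread between libraries. Summed catalytic transcripts went from 41.4 ± 1.47 to 37.8 ± 0.650 FPKM and summed A transcripts from 23.1 ± 0.630 to 30.4 ± 0.372 FPKM (SD, n = 3).

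Within the A pair, PPP2R1A supplied 77.5% ± 1.52 (SD, n = 3) of the FPKM of control libraries and 85.5% ± 1.08 after knockdown. The log2 ratio of PPP2R1A to PPP2R1B was 1.83, 1.65 and 1.88 in control libraries and 2.57, 2.68 and 2.43 after knockdown, the largest difference of the 8 ratios (0.77). Within the catalytic pair, PPP2CA went from 32.2% ± 1.03 to 29% ± 0.429, and its log2 ratio to PPP2CB differed by -0.22.

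Among the GCKIII kinases, STK24 supplied 36.2% ± 0.539 (SD, n = 3) of the summed FPKM of control libraries and 28.5% ± 0.939 after knockdown. STK26 went from 49.6% ± 0.431 to 55.6% ± 1.27, and STK25 from 14.2% ± 0.178 to 15.9% ± 0.796. The difference of 1.77 percentage points for STK25 was 3.47 when counts replaced FPKM. The log2 ratio of STK24 to STK25 differed by -0.51 and that of STK24 to STK26 by -0.51, with no overlap of the groups. By contrast, the log2 ratio of STK25 to STK26 was -1.81 ± 0.0163 and -1.80 ± 0.0979 (exact permutation p = 0.8, adjusted 0.8, n = 3). The ratio of PDCD10 to the summed kinases was likewise 0.610 and 0.601 (exact permutation p = 0.8, adjusted 0.8, n = 3), as PDCD10 and the kinase sum were both lower in si-STRIP2. With counts in place of FPKM its log2 difference of -0.023 turned to 0.10. The kinase sum was 47.1 ± 1.88 FPKM in si-NC and 42.2 ± 0.773 in si-STRIP2.

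MAP4K4 supplied 75.2% ± 1.34 (SD, n = 3) of the FPKM of its pair with MINK1 in control libraries and 67.4% ± 1.43 after knockdown. The log2 ratio differed by -0.55 without overlap. The sum of the pair was 25.8 ± 0.265 and 25.2 ± 1.05 FPKM, and the groups overlapped (exact permutation p = 0.4, n = 3).

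**Figure D3:**
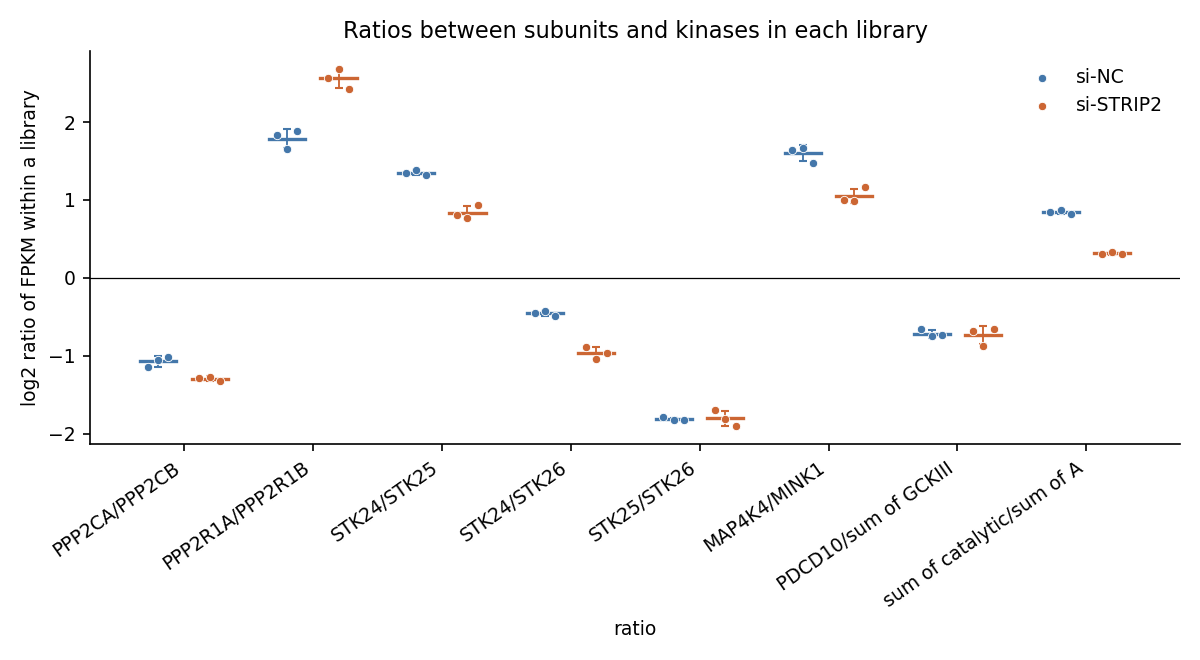
Log2 ratio of FPKM within each library (vertical axis) for 8 pairs or sums, with si-NC in blue and si-STRIP2 in orange. Points are libraries, bars are means and error bars are SD. The groups overlap for STK25/STK26 and for PDCD10 over the summed GCKIII kinases, and are apart for the other 6 ratios.

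The other STRIPAK subunits were examined as context, from lists chosen by function. The share called in a list is not read as particular to it. The background of 54.8% takes in genes with as few as 6.83 counts on average. In a separate fit of only the genes with at least 5 FPKM in at least 3 libraries, 5002 of 6955 were called. Of 11 tested scaffold, adaptor and striatin genes, 6 fell, STRIP2 itself among them, and 1 rose, with a median log2 fold change of -0.15. That is 63.6% called, beside 54.8% of all genes tested. The falls included the 3 striatins, the B-type subunits of PP2A in STRIPAK, at -0.15 (STRN), -0.18 (STRN3) and -0.17 (STRN4). They were named after their values were seen, and none passed the test against a 1.2-fold change. The 1 rise was that of CTTNBP2 (log2 fold change 0.45, edgeR adjusted p = 0.000334), also named after its value was seen. The smallest adjusted p-values were those of CTTNBP2NL, which binds striatins (log2 fold change -0.53, edgeR adjusted p = 5.93e-09), STRIP2, and MOB4, a striatin-bound Mob protein (-0.25, edgeR adjusted p = 2.22e-05).

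The B subunits that compete with striatins for the PP2A core were mixed. Of 11 tested, 5 fell and 1 rose, and 5 did not pass, with a median of -0.11. The share called was 54.5%, beside 54.8% of all genes tested. PPP2R5D, a B56 subunit, rose from 8.75 ± 0.110 to 13.6 ± 0.5 FPKM (SD, n = 3; log2 fold change 0.63, edgeR adjusted p = 6.34e-12). PPP2R3A and PPP2R5E fell (log2 fold changes -0.60 and -0.33, edgeR adjusted p = 8.33e-09 and 2.99e-08).

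Of 14 factors that assemble, modify or inhibit PP2A, 6 rose and 5 fell, with a median of 0.047 (78.6% called, beside 54.8% of all genes tested). The test against a 1.2-fold change passed 0 of them, beside 23.7% of all genes. TIPRL, which binds the catalytic subunits of PP2A-type phosphatases, fell (log2 fold change -0.28, edgeR adjusted p = 8.13e-07), as did PABIR1, an inhibitor of PP2A (-0.38, edgeR adjusted p = 2.04e-05). PPME1, the methylesterase of the catalytic C terminus, rose by 0.23 (edgeR adjusted p = 5.28e-05).

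Among 13 partners and anchors of the GCKIII kinases, 4 rose and 5 fell, with a median of 0.037 (69.2% called, beside 54.8% of all genes tested). STK38L, an NDR kinase that STK24 phosphorylates, fell (log2 fold change -0.49, edgeR adjusted p = 7.22e-11). GOLGA2, also called GM130, which anchors STK25 and STK26 at the Golgi, fell (-0.34, edgeR adjusted p = 1.91e-07). CAB39L, a MO25 protein that activates STE20-type kinases, fell by 0.71 (edgeR adjusted p = 1.17e-06). The genes that rose were picked after their values were seen. KRIT1 and CCM2, which join PDCD10 in the cerebral cavernous malformation complex, rose by 0.53 and 0.21 (edgeR adjusted p = 4.14e-06 and 0.0345). Both were low, at 0.763 and 1.71 FPKM on average in si-NC, and CCM2 did not pass the test against a 1.2-fold change. STRADA and STK38 rose by 0.47 and 0.28 (edgeR adjusted p = 1.39e-05 and 1.33e-05).

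**Figure D4:**
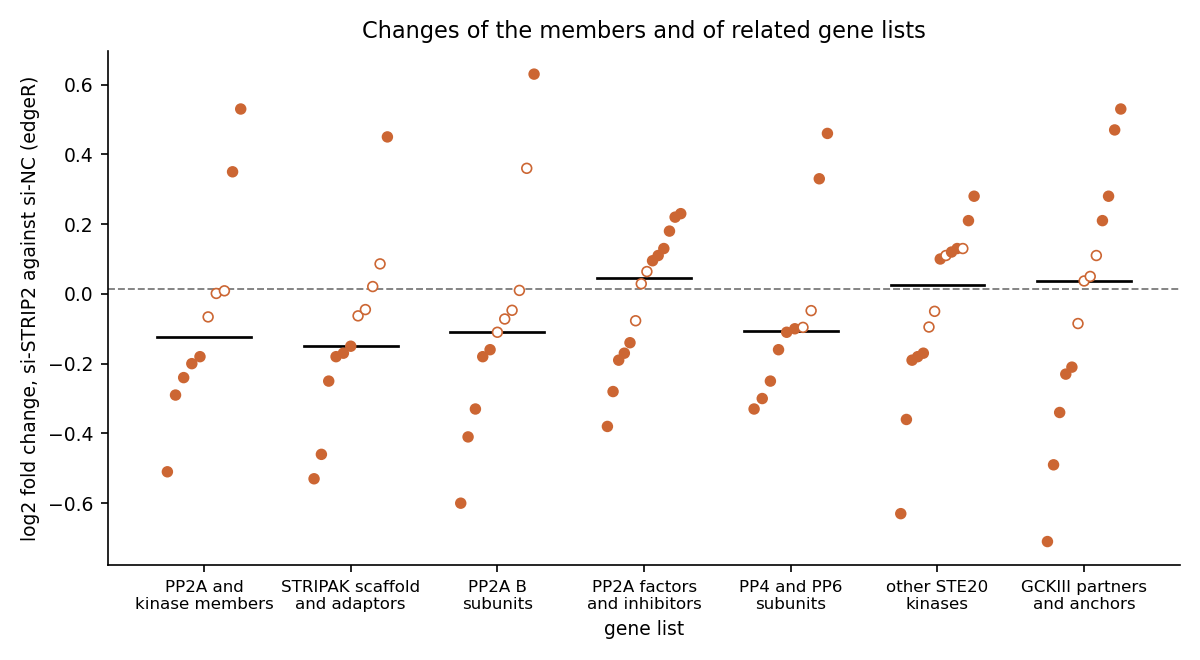
Log2 fold change (vertical axis, si-STRIP2 against si-NC) of the tested genes of the 10 members and of 6 related lists, filled where the edgeR adjusted p is under 0.05. Black bars are list medians and the dashed line is the median of all genes tested (0.014). Each list holds genes on both sides of 0, and the medians run from -0.15 to 0.047.

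The genes whose 6 values were most like those of PPP2R1A, by root mean square difference of centred log2 CPM (counts scaled to library size), were MAEA (0.0207), MMS19 (0.0213) and CYC1 (0.0229). For STK24 they were EIF2S1 (0.0168), SIL1 (0.0171) and RAB5A (0.0183). The median over the 6655 genes compared was 0.269 and 0.273. With 54.8% of tested genes changed, such a match is given as a description only.

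**Figure D5:**
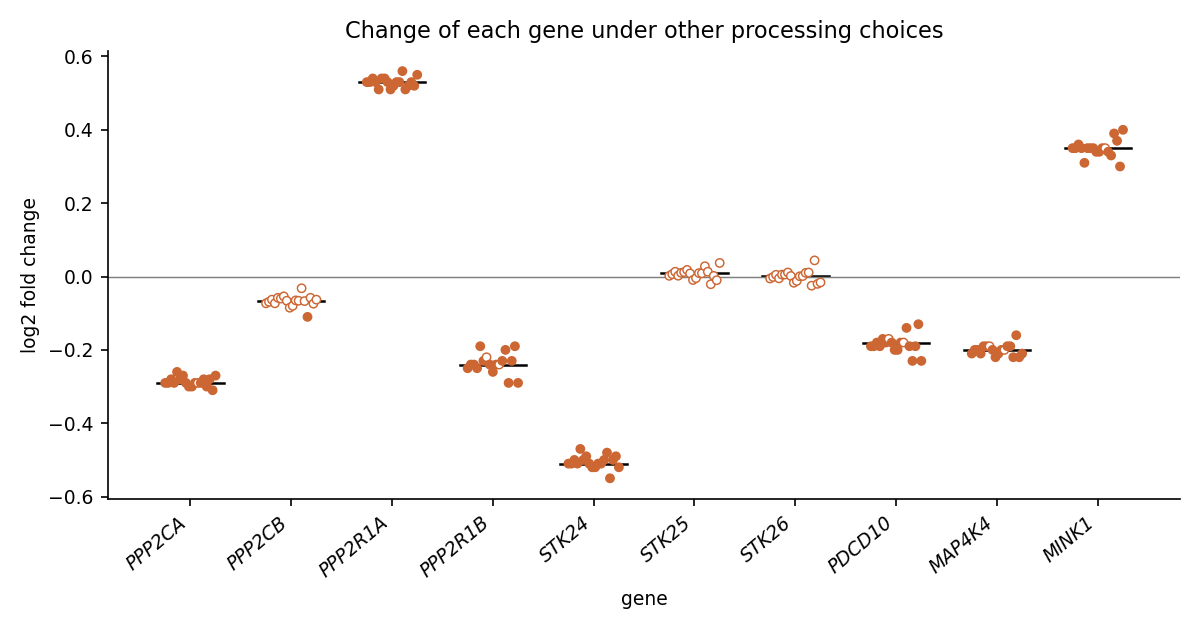
Log2 fold change of each gene (vertical axis) under the 18 alternative processing choices, filled where the adjusted p is under 0.05. The black bar is the reported value. PPP2R1A, MINK1 and STK24 stay far from 0 throughout, while STK25 and STK26 scatter around 0.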

How the data were processed

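Poly(A) RNA of 6 HCT116 libraries was sequenced from directional libraries, per the labels' protocols. The authors deposited raw counts and FPKM per gene. The submitters' processing notes name cutadapt 1.9.1, HISAT2 2.2.1, HTSeq 0.6.1 and GRCh38.p13. The annotation release and the strand setting are not given in the sources used here. Deposited FPKM values differed from a recomputation by at most 0.005, their rounding.

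Counts were tested in R 4.3.3 with edgeR 4.0.16 (quasi-likelihood F test, TMM, filterByExpr with a minimum count of 10, group as the only term), 2-sided, with Benjamini-Hochberg adjustment over 15687 genes and an adjusted p threshold of 0.05. SE was the absolute log2 fold change over the square root of F. Alternatives used DESeq2 1.42.0 and limma 3.58.1. The fits were tested on simulated data, where changed genes with low counts were recovered only in part. After an initial run missed its bar, the bar was restricted to changed genes with higher counts. Far fewer genes were changed there than were called here, so the simulation cannot speak for changes this widespread. Totals of 17184963 to 21721218 counts limit the precision of low genes.

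The members and lists were chosen with earlier results of these data known. By rule, the text names the members, STRIP2, up to 3 called genes with the smallest adjusted p per list, and the 3 genes most like the member with the largest rise and the largest fall, among genes with a symbol and a mean of at least 5 FPKM. STRN, STRN3, STRN4, CTTNBP2, KRIT1, CCM2, STRADA and STK38 were named outside that rule, after their values were seen.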

Additional observations from a re-analysis of the deposited data

How the results depend on the processing

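Each fold change and count was recomputed under 18 alternatives (12 of method, 6 leaving out a library), and shares and ratios under 7. PPP2R1B was removed by the filter of 5 FPKM and had 17. PPP2R1A and STK24 kept their direction and call in all 18. With limma on log2(TPM + 1), 4 of the 10 genes passed, 2 of them lower, and PPP2R1B (-0.22), PDCD10 (-0.17) and MAP4K4 (-0.19) did not. The test against a 1.2-fold change asks for more by construction: it passed 2 of the 10, 1 higher and 1 lower, and not PPP2CA (-0.29), PPP2R1B (-0.24), PDCD10 (-0.18), MAP4K4 (-0.20) or MINK1 (0.35). With a library left out, PPP2CB ranged from -0.11 to -0.032, STK25 from -0.021 to 0.037 and STK26 from -0.025 to 0.044. STK25, never past the threshold, was at -0.0095 and -0.0044 with filters of 1 and 5 FPKM, and STK26, also never past it, at -0.017 and -0.012, at -0.0054 with RLE, -0.0013 with the upper quartile and -0.0050 with DESeq2. Over all genes, limma on log2(TPM + 1) gave 5280 calls (2818 higher, 2462 lower) on 12329 genes, where limma on log2(FPKM + 1) gave 6931 on as many, the filter of 5 FPKM 5002 (2462 and 2540) on 6955 genes, and the 1.2-fold test 3723 (1780 and 1943), against 8599 (4359 and 4240).

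With limma on log2(TPM + 1), 4 of 11 STRIPAK subunits and 3 of 14 PP2A factors were called. So were 4 of 10 PP4 and PP6 subunits and 4 of 13 other STE20-type kinases. Over all genes that setting called 5280 of 12329. The 1.2-fold test passed 3 of 11 STRIPAK subunits, 3 of 11 B subunits and 0 of 14 PP2A factors. It also passed 1 of 10 PP4 and PP6 subunits, 2 of 14 STE20-type kinases and 4 of 13 GCKIII partners. Of all genes tested, 23.7% passed it. The PP4 and PP6 list had 5 calls with no filter on low counts and 5 to 8 with a library left out (5 without si-NC replicate 1 or without si-STRIP2 replicate 2), against 8. Over all genes, 8365 of 32799 were called with no filter. The calls were 7690 of 16043 without si-NC replicate 1 and 7960 of 16055 without si-STRIP2 replicate 2. Counts in place of FPKM gave differences of -8.64 (STK24 share), 3.47 (STK25 share) and -6.28 percentage points (MAP4K4 share), 0.10 for the log2 ratio of PDCD10 to the GCKIII sum and -0.55 for catalytic to A subunits, since counts weigh long genes more. Otherwise the cause was not tested. Whether libraries of equal replicate number were paired is not given in the sources used here. Correlations of deviations from the group means were -0.0858, -0.0133 and -0.0718 between same-numbered libraries. Between other-numbered libraries they ran from -0.0405 to 0.112. Deviations of 3 libraries from their own mean are tied to each other, so these values cannot decide the question. The fit with the replicate number as a block left all calls of the 10 genes as they were, with 7 passing. It gave 5 calls among the 10 PP4 and PP6 genes, and 8293 of 15687 genes were called in it.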

Other observations

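PP4 and PP6, the phosphatases most like PP2A, were also measured. Of 10 subunit genes, 2 rose and 6 fell (median log2 fold change -0.11, beside 0.014 for all genes tested). The 8 called were 80% of the list, beside 54.8% of all genes tested, and 5 were called without si-NC replicate 1 or without si-STRIP2 replicate 2. The share is not read as particular to the list, as 5002 of 6955 genes were called in the separate fit with the filter of 5 FPKM. PPP4C, the catalytic subunit of PP4, rose from 23.2 ± 0.540 to 31.9 ± 1.35 FPKM (SD, n = 3; log2 fold change 0.46, edgeR adjusted p = 2.26e-10). Its regulatory subunit PPP4R2 fell by 0.33 on the log2 scale (edgeR adjusted p = 9.07e-09), and PPP6R3, which directs PP6, fell by 0.30 (edgeR adjusted p = 7.55e-08). Among 14 other STE20-type kinases, 5 rose and 5 fell, with a median of 0.026 (71.4% called, beside 54.8% of all genes tested). TAOK3 and SLK fell (log2 fold changes -0.63 and -0.36, edgeR adjusted p = 1.65e-10 and 3.88e-09), and TAOK2 rose by 0.21 (edgeR adjusted p = 0.000462).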
